A study of Homo sapiens and Mus musculus with 13 samples.

Results

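The 40 genes described here carry out DNA replication and cell division. They are 18 S phase genes and 22 mitosis genes, chosen by symbol in the human gene table and by the same symbol with only its first letter in capitals in the mouse table. All 40 were listed in the mouse table of 55228 symbols, and 39 had an entry of their own in the human table of 24523 symbols. BUB1B, a kinase of the spindle checkpoint, was listed there only in 1 entry joined with PAK6, so the human mitosis genes number 21. Every one of these genes had a mean FPKM (fragments per kilobase of gene, scaled to the mapped fragments of the library) of at least 0.5 in its table, the limit for testing, which 12636 human and 17328 mouse genes passed.

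A cell copies its DNA in S phase and separates the copies in mitosis. Before S phase, E2F1 and related factors switch on the cyclin E genes, the MCM helicase subunits that license replication origins, and the enzymes that make deoxynucleotides. Later, cyclin A, the B-type cyclins and their kinase CDK1 drive entry into mitosis, in which Aurora and Polo kinases, kinetochore proteins and kinesins move the chromosomes, and CDC20 and UBE2C serve the ubiquitin ligase that ends it. MYBL2 (B-Myb) and FOXM1 are transcription factors of the later genes, and the mRNA levels of all these genes depend on the share of cells in cycle and on their phase.

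Poly(A) RNA was sequenced from 7 lines of MDA-MB-231, a human triple-negative breast cancer cell line, and from 6 mammary tumors of mice, 1 library each. The lines carried Cas9 with guide RNAs and had been selected with puromycin: 1 Control line with a GFP guide, TRIM11-KD1 and TRIM11-KD2 with TRIM11 guides 1 and 2, KDM5C-KD1 and KDM5C-KD2 with KDM5C guides 1 and 2, and the double knockdown lines DKD1 and DKD2, which carried TRIM11 guide 1 or 2, respectively, and both KDM5C guide 2. TRIM11 is a ubiquitin ligase and KDM5C a histone H3K4 demethylase, and the study asked how both bear on breast cancer growth. The tumors came from 3-month-old MMTV-PyVT females of mixed C57BL/6N and FVB/N background, 3 wild type (WT) and 3 Trim11+/- with exons 2 to 6 deleted from 1 allele. In all 6 mice the tumors arose from a polyoma middle T transgene under the MMTV promoter, which is active mainly in mammary epithelium, so WT tumors are tumors as well and no normal gland was compared. TRIM11-KD and DKD lines of the same number share a TRIM11 guide, while the labels do not say whether a line was 1 clone or whether tumors of the same number belong together.

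TRIM11 (chr1:228581374-228594536, hg19) was listed at 12.6 FPKM in Control, 13.4 in the library labelled TRIM11-KD1, 10.6 in TRIM11-KD2, 16.1 in the library labelled DKD1 and 9.38 in DKD2. The labels TRIM11-KD1 and DKD1 are thus not borne out by TRIM11 mRNA, which is lower than in Control only in the lines with TRIM11 guide 2. Cas9 cuts need not lower an mRNA. Protein was not measured in these files, while the paper states that its knockdown lines were checked by western blot. KDM5C was between 18.8 and 22.7 in the 4 lines with a KDM5C guide and between 28.4 and 30.3 in the other 3. In tumors, Trim11 was 35.8, 36.3 and 39.2 FPKM in WT and 24.0, 22.8 and 22.9 in Trim11+/-. VIM was at 1040 to 1310 FPKM in the lines, with ESR1 at no more than 0.0234 and PGR at 0, and 5 epithelial markers summed to between 1320 and 1830 FPKM in the tumors. The library totals recovered from the tumor values ran from 8793198 to 11117125 reads, while the depth of the line libraries is unknown.

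The start regions of the 2 sets of genes differ in their letters. Windows from 250 bases before to 50 bases after the annotated start were taken from RefSeq (GRCh38.p14) and matched 15 of the 18 S phase genes and 17 of the 22 mitosis genes. They were searched on both strands for an E2F site (TTTCCCGC, TTTGGCGC, TTTCGCGC or TTTGCCGC), for the CHR element known from promoters of mitosis genes (TTTGAA or TTTAAA) and for CCAAT. An E2F site was found for 11 of the 15 S phase genes and for 2 of the 17 mitosis genes, CDK1 and CENPA. Of all 35116 windows in the table, 3.31% held such a site (3.99% of its 27305 genes). A CHR was found for 14 of the 17 mitosis genes and for 3 S phase genes, CCNE1, RRM1 and RRM2, against 24.0% of all windows (27.9% of genes). CCAAT was found for 15 mitosis and 10 S phase genes, against 34.6% of all windows (39.7% of genes). Several of these genes have more than 1 window, with 22 windows for mitosis and 21 for S phase genes. A match shows only that these letters are present, and some E2F letters overlap each other.

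Sequences of 6 of these genes are given, 5 of them to show the letters searched and MYBL2 because it had the largest difference with the KDM5C guide in the lines. The first 3 are S phase genes and the last 3 mitosis genes, each with the 150 bases before its start, 5′ to 3′ on the gene's strand, with E2F, CHR and CCAAT letters of either strand in capitals. MYBL2 lies at chr20:43666964-43667113 (plus strand), E2F1 at chr20:33686386-33686535 (minus), MCM6 at chr2:135876444-135876593 (minus), PLK1 at chr16:23678739-23678888 (plus), CCNB1 at chr5:69167000-69167149 (plus) and CDC20 at chr1:43358831-43358980 (plus).
MYBL2: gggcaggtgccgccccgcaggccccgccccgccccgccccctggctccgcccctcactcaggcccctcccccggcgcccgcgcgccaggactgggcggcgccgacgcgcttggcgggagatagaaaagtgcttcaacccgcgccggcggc
E2F1: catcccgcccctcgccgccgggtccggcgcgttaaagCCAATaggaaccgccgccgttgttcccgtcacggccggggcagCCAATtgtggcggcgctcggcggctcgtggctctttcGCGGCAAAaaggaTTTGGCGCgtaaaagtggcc
MCM6: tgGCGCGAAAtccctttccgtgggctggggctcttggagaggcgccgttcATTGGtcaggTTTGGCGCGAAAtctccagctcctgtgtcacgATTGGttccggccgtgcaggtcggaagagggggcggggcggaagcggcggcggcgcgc
PLK1: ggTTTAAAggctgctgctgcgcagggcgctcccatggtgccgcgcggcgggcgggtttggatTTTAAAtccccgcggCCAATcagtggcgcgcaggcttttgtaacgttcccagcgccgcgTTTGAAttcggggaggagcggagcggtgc
CCNB1: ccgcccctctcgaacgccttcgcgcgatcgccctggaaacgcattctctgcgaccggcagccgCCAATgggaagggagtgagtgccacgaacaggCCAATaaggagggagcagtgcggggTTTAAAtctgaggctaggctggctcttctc
CDC20: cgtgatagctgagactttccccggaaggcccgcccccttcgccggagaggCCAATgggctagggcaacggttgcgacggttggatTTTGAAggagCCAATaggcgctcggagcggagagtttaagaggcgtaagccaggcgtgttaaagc
E2F1 and MCM6 hold E2F sites in these bases, and PLK1, CCNB1 and CDC20 hold CHR letters together with CCAAT. MYBL2 holds none of the exact letters searched in these bases. Sites spelled otherwise were not searched, so this does not show that MYBL2 lacks E2F or CHR sites.

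All members were well expressed in the MDA-MB-231 lines. The mean level of a mitosis gene over the 7 lines ran from 10.8 FPKM for CDC25C, the phosphatase that activates CDK1, to 250 FPKM for UBE2C. Among S phase genes it ran from 6.93 for CCNE1 (cyclin E1) to 125 for PCNA, the sliding clamp of DNA polymerases. The S phase genes varied more across the lines. Their highest level was 1.61 to 3.52 times their lowest, with a median of 2.38, and 14 of 18 varied at least 2-fold. For mitosis genes this ratio was 1.16 to 1.71 with a median of 1.44, and no gene reached 2. Over all 12636 genes tested the median ratio was 1.58, and 27.2% reached 2.

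MKI67, the proliferation antigen Ki-67, was at 34.5 FPKM in Control, 33.1 and 44.7 in TRIM11-KD, 31.9 and 54.4 in KDM5C-KD, and 43.7 and 52.5 in DKD. Values of a knockdown are given with line 1 before line 2 throughout. CCNB1 (cyclin B1) was at 104 in Control, 100 and 117 in TRIM11-KD, 116 and 138 in KDM5C-KD, and 106 and 119 in DKD. In both genes the line with the number 2 was the higher of its pair in every knockdown, and the knockdowns overlapped. CDC20 was at 138 FPKM in Control, 122 and 153 in TRIM11-KD, 123 and 166 in KDM5C-KD, and 116 and 168 in DKD, so that the lines numbered 1 were all below Control and those numbered 2 all above it. PLK1 (Polo-like kinase 1) differed in order: the lowest values were 45.5 and 48.0 in TRIM11-KD, followed by 54.7 in Control, 55.5 and 59.4 in DKD, and 59.8 and 73.9 in KDM5C-KD. PLK1 (chr16:23688977-23701688, hg19) was therefore lowest in the TRIM11-KD lines and above Control in every line with a KDM5C guide.

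E2F1, the activator of the S phase genes, was at 36.6 FPKM in Control, 27.1 and 41.4 in TRIM11-KD, 40.7 and 52.9 in KDM5C-KD, and 53.6 and 57.2 in DKD. CCNE2 (cyclin E2) was at 9.24 in Control, 6.59 and 9.11 in TRIM11-KD, 9.71 and 15.9 in KDM5C-KD, and 9.85 and 14.9 in DKD. Cyclin E2 was higher in all 4 lines with a KDM5C guide than in the other 3, although KDM5C-KD1 and DKD1 exceeded Control by little. PCNA was at 103 in Control, 91.4 and 125 in TRIM11-KD, 109 and 155 in KDM5C-KD, and 124 and 171 in DKD. The helicase subunit MCM2 was at 28.9 in Control, 25.4 and 36.2 in TRIM11-KD, 33.2 and 42.6 in KDM5C-KD, and 42.9 and 53.4 in DKD. For PCNA and MCM2, TRIM11-KD2 lay above KDM5C-KD1, so the lines with and without a KDM5C guide overlapped.

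MYBL2 (chr20:42295659-42345135, hg19) stood apart in the lines with a KDM5C guide. It was at 21.0 FPKM in Control, 17.5 and 22.6 in TRIM11-KD, 32.6 and 45.5 in KDM5C-KD, and 42.5 and 41.3 in DKD. All 4 lines with a KDM5C guide were above the other 3, and the lowest of the 4 carried KDM5C guide 1.

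**Figure D1:**
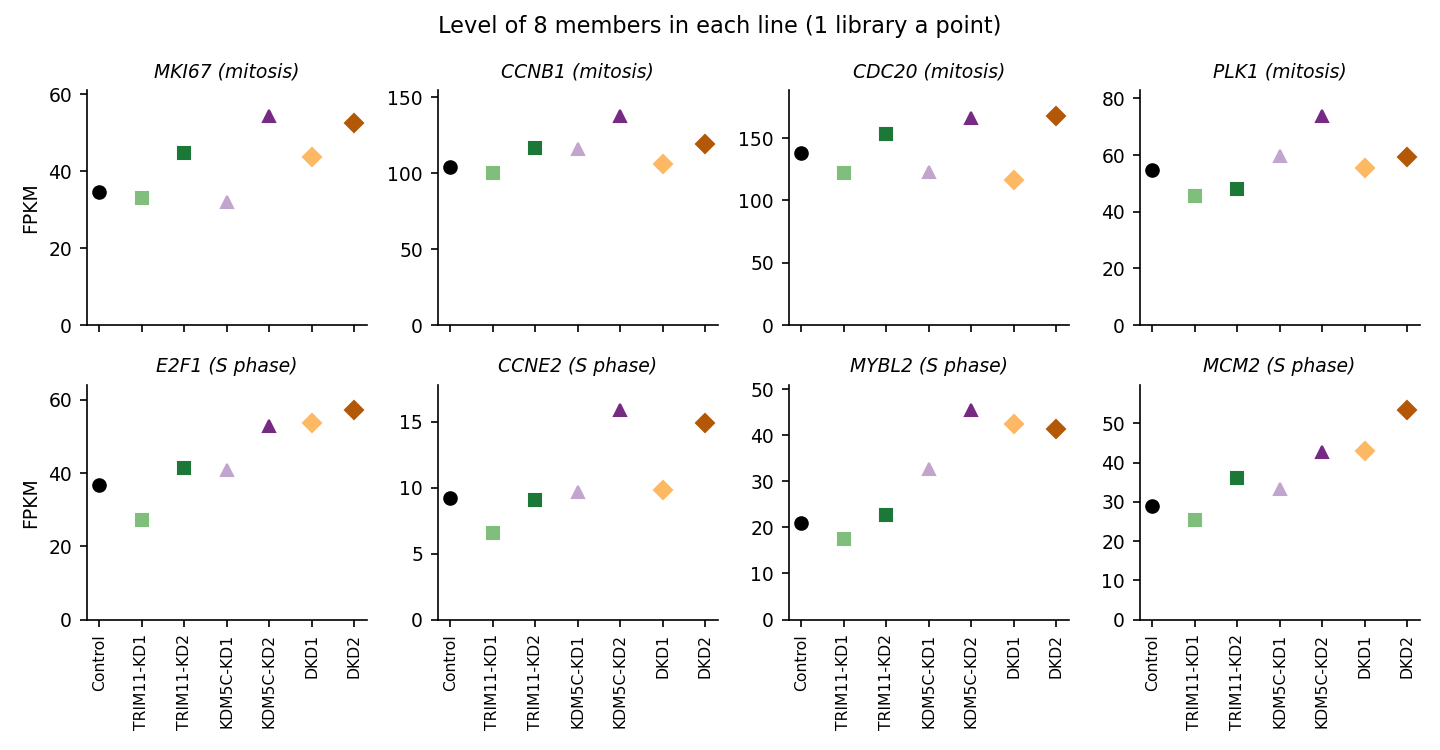
FPKM (vertical axes, starting at 0) of 8 members in each of the 7 MDA-MB-231 lines, 1 library a point, with a shade for each line number of a knockdown. MYBL2 ran from 17.5 to 22.6 in Control and TRIM11-KD and from 32.6 to 45.5 in the lines with a KDM5C guide.

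Relative to Control, the S phase genes spread over the lines and the mitosis genes followed in part. The median log2 ratio of the 18 S phase genes to Control was -0.26 in TRIM11-KD1, 0.29 in TRIM11-KD2, 0.12 in KDM5C-KD1, 0.63 in KDM5C-KD2, 0.43 in DKD1 and 0.86 in DKD2. The same median for the 21 mitosis genes was -0.02, 0.16, 0.04, 0.27, 0.05 and 0.26 in that order of lines, while over all genes tested it stayed between -0.02 and 0.00. In TRIM11-KD1, 17 of 18 S phase genes were below Control, and in both DKD lines all 18 were above it. The Control value is a single library, so these ratios have no replicate check and carry no p-value. In bulk RNA, of lines and tumors alike, fewer dividing cells and less RNA per cell cannot be told apart.

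**Figure D2:**
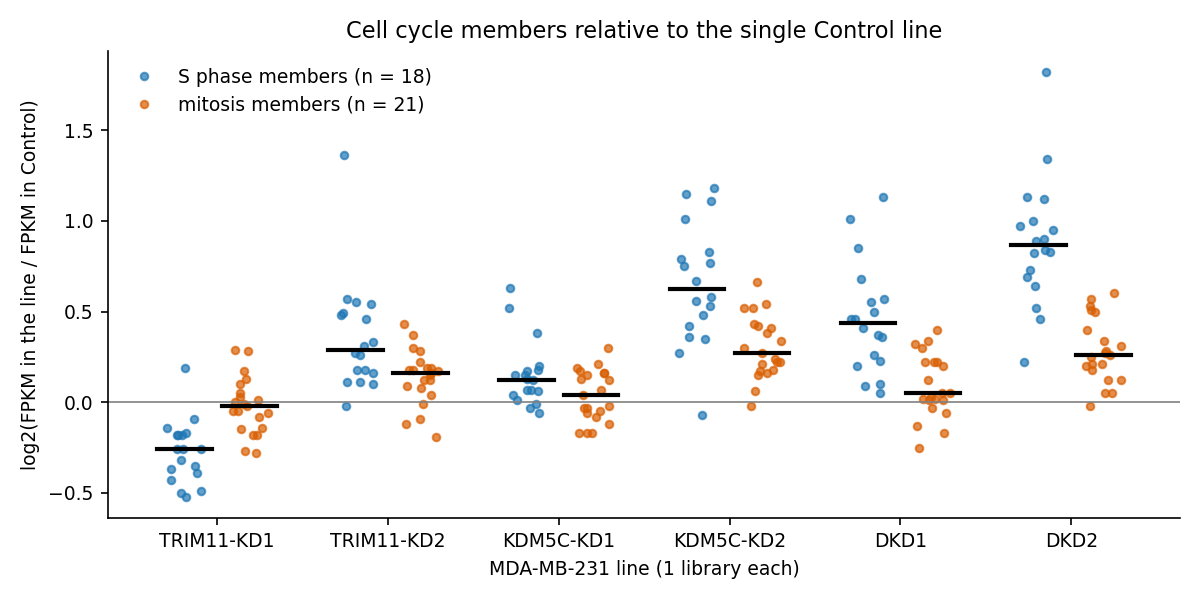
Log2 ratio of FPKM in each knockdown line to FPKM in the single Control line, 1 point for each of 18 S phase and 21 mitosis genes, with black bars at the median. S phase genes had a median of -0.26 in TRIM11-KD1 and 0.86 in DKD2, and mitosis genes lay closer to 0.

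Few members passed 1.5 times Control in both lines of a knockdown. In TRIM11-KD there were 0 of 39, where 3.25% of all genes tested passed upward. In KDM5C-KD, MYBL2 alone passed, at 1.55 and 2.16 times Control, against 5.22% of all genes. In DKD there were 4 of 39, against 5.71% of all genes. They were CCNE1 at 2.18 and 3.52 times Control, MYBL2 at 2.02 and 1.96, MCM6 at 1.80 and 2.54, and UHRF1, which helps to copy DNA methylation at the fork, at 1.60 and 2.18. No member passed downward in any knockdown, where 2.58%, 3.97% and 4.87% of all genes did in TRIM11-KD, KDM5C-KD and DKD. The upward counts of 0, 1 and 4 of 39 are small and are not read as a difference from the share of all genes. Counted line by line, 15 of 18 S phase genes passed upward in DKD2, 9 in KDM5C-KD2, 4 in DKD1, and 1 each in KDM5C-KD1 and TRIM11-KD2. Of 21 mitosis genes, 1 passed in each of DKD2 and KDM5C-KD2. Of all genes tested that had a ratio, 1407 of 12556 passed upward in DKD2, 1436 of 12550 in KDM5C-KD2 and 1174 of 12570 in DKD1. In KDM5C-KD1 there were 999 of 12579, and in TRIM11-KD2 there were 1074 of 12575. With the mean of both lines in place of each line, 1, 4 and 11 of 39 members passed upward in TRIM11-KD, KDM5C-KD and DKD. Of all 12636 genes tested, 840, 1170 and 1243 did.

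The lines with a KDM5C guide were compared with those without by limma on log2(FPKM + 1) over all 7 lines, with the TRIM11 guide as a second term. All 18 differences of the S phase genes were above 0, from 0.25 for MCM3 to 0.96 for MYBL2, with a median of 0.50 (a fold of 1.42), where all genes tested had a median of 0.00. Mitosis genes differed less, from -0.01 for TTK, a checkpoint kinase, to 0.29 for MKI67 and PLK1, with a median of 0.10, and 20 of 21 differences were above 0. The log2(FPKM + 1) scale understates the fold of low genes.

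At an unadjusted limma p under 0.05, 9 of 18 S phase genes and 2 of 21 mitosis genes were higher with the KDM5C guide and 0 were lower, where 5.87% of all genes tested were higher and 11.1% passed in either direction. By Benjamini-Hochberg adjusted p, 0 of the 39 reached 0.05 in limma, and 1 gene of 12636 (0.00791%) did. MYBL2 came closest, with a log2 difference of 0.96 ± 0.15 (SE) and an adjusted limma p of 0.268.

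The other S phase genes that passed were MCM2 (0.53 ± 0.17), E2F1 (0.56 ± 0.18), GINS2 (0.49 ± 0.17), MCM6 (0.61 ± 0.22), CDT1 (0.65 ± 0.25), UHRF1 (0.68 ± 0.27), MCM5 (0.57 ± 0.23) and CCNE2 (0.51 ± 0.22), each as a log2 difference with its SE. MCM2, MCM5 and MCM6 are subunits of the helicase, CDT1 loads it onto origins, and GINS2 belongs to the complex that activates it. RRM2, the regulated subunit of ribonucleotide reductase, differed by 0.42 ± 0.33 and thymidylate synthase TYMS by 0.43 ± 0.26, both within their spread. MCM3 (0.25 ± 0.15) and RRM1 (0.29 ± 0.15) had the smallest S phase differences.

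The mitosis genes that passed were PLK1 (0.29 ± 0.10) and CDC25C (0.27 ± 0.11), both of which promote entry into mitosis. Their levels did not overlap between lines with and without a KDM5C guide, which also held for CCNA2 (cyclin A2) and, among S phase genes, for MYBL2, CCNE2 and GINS2. These are 6 of 39 members, and 5.64% of all genes tested lay higher without overlap. TOP2A, the topoisomerase that untangles sister DNA, differed by 0.02 ± 0.10.

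Leaving out 1 line changed the count of 11 members. It was 3 without TRIM11-KD1, 3 without DKD2, 5 without Control, 6 without KDM5C-KD2 and 18 without KDM5C-KD1, and with TRIM11-KD1 and DKD1 both left out it was 7. MYBL2 passed at an unadjusted limma p under 0.05 in each of these, with differences of 0.84 to 1.05. Since 3 of the 4 lines with a KDM5C guide carry guide 2, the 2 guides have unequal weight. The share of all genes is not given for fits that leave out lines, here or below. A changed count in such a fit may therefore not be particular to the members.

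**Figure D3:**
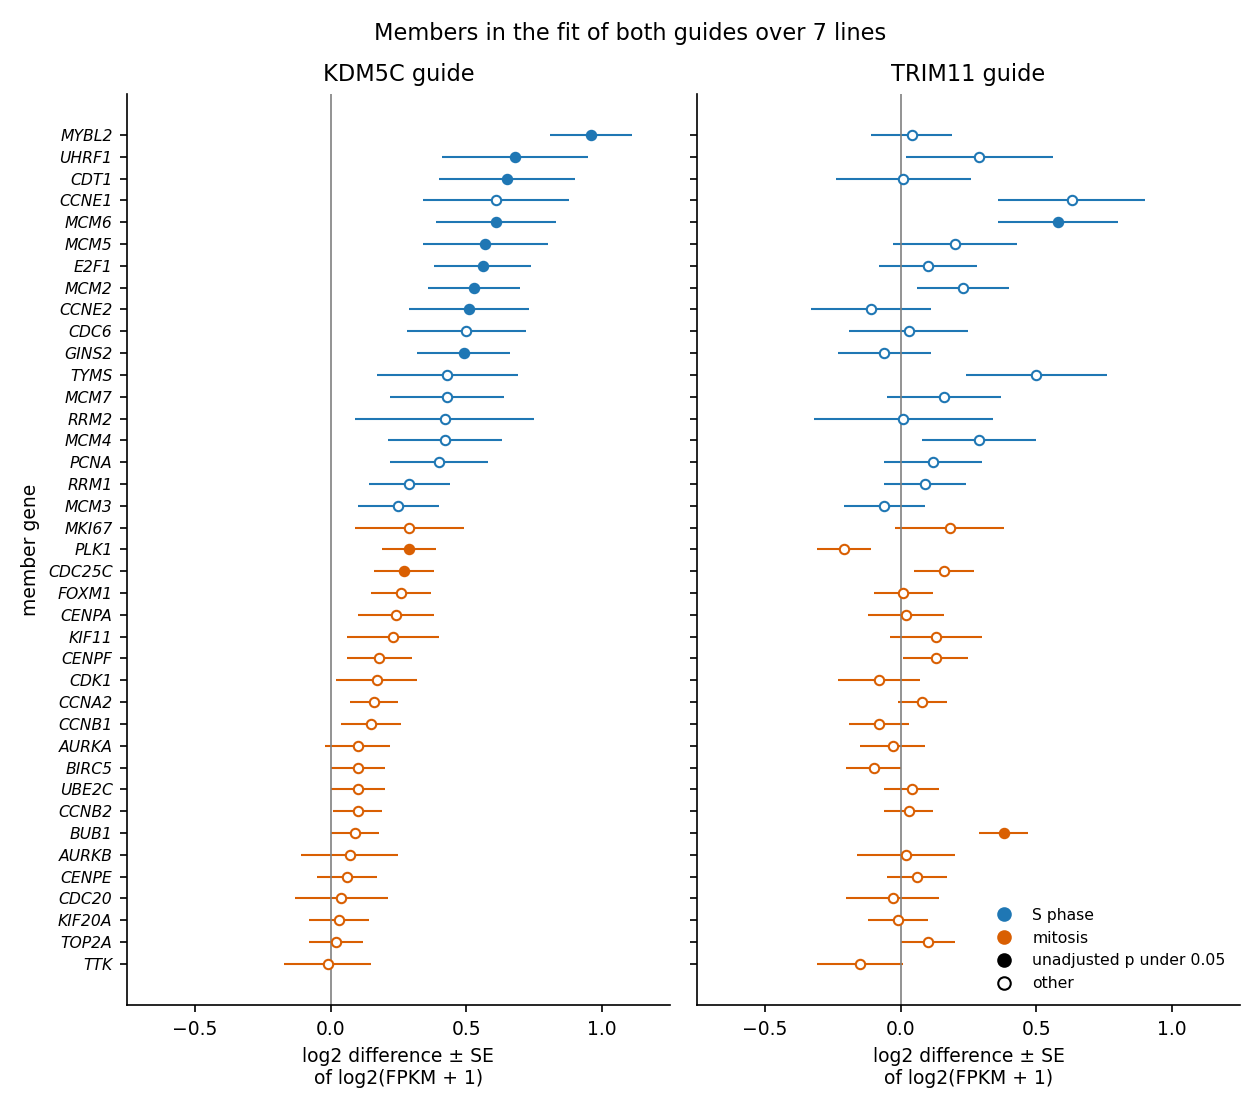
Log2 difference (horizontal axes, with SE) of each of 39 members for the KDM5C guide and the TRIM11 guide, from 1 limma fit of log2(FPKM + 1) over 7 lines. Filled points have an unadjusted p under 0.05, which 11 members have for the KDM5C guide and 2 for the TRIM11 guide.

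In the same fit, members were higher with the TRIM11 guide at about the share of all genes. At an unadjusted limma p under 0.05, 1 of 18 S phase genes and 1 of 21 mitosis genes were higher and 0 were lower, where 5.19% of all genes tested were higher and 10.7% passed in either direction. They were MCM6 (0.58 ± 0.22) and BUB1, a kinase of the spindle checkpoint (0.38 ± 0.09), with adjusted limma p of 0.449 and 0.448. BUB1 (chr2:111395105-111435640, hg19) was at 54.4 and 60.7 FPKM in TRIM11-KD and 59.3 and 65.0 in DKD. It was at 45.0 in Control and at 49.0 and 44.5 in KDM5C-KD, so the lines with a TRIM11 guide were all higher. The share of all genes that lay higher without overlap was 4.20%.

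MCM6 (chr2:136597196-136634013, hg19) was at 22.2 FPKM in Control, 20.2 and 33.0 in TRIM11-KD, 24.3 and 28.4 in KDM5C-KD, and 40 and 56.3 in DKD, so it was higher in both DKD lines than in every other line. The median log2 difference was 0.11 for S phase and 0.02 for mitosis genes. CCNE1 had the largest S phase difference (0.63 ± 0.27), and CCNE2 (-0.11 ± 0.22) and GINS2 (-0.06 ± 0.17) the 2 lowest. MKI67 was 0.18 ± 0.20, TTK -0.15 ± 0.16 and PLK1 -0.21 ± 0.10, all short of the limit. Without TRIM11-KD1 and DKD1, in which TRIM11 mRNA was not below Control, 7 members passed and the S phase median was 0.38. Leaving out 1 line gave 6 members without TRIM11-KD1 and 1 without TRIM11-KD2, KDM5C-KD2 or DKD2, and MCM6 did not pass without TRIM11-KD2, KDM5C-KD1, KDM5C-KD2 or DKD2 (0.40 to 0.57).

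A term for the interaction of both guides, added after the data were seen, gave 0 members at an unadjusted limma p under 0.05, where 5.49% of all genes passed, so that a departure of DKD from the sum of both guides was not detected for any member in these 7 libraries.

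Compared directly over the 6 knockdown lines, KDM5C-KD and TRIM11-KD differed in 3 of 39 members at an unadjusted limma p under 0.05, where 9.88% of all genes passed. MYBL2 (0.92 ± 0.20) and PLK1 (0.50 ± 0.14) were higher in KDM5C-KD, and BUB1 was lower (-0.29 ± 0.12). KDM5C-KD and DKD also differed in 3, against 11.7% of all genes: MCM6 (-0.83 ± 0.27), TYMS (-0.78 ± 0.32) and BUB1 (-0.41 ± 0.12) were lower in KDM5C-KD. DKD and TRIM11-KD differed in 5, all S phase genes higher in DKD, against 7.03% of all genes in either direction and 3.78% higher. They were MYBL2 (1.04 ± 0.20), MCM6 (0.85 ± 0.27), E2F1 (0.71 ± 0.22), MCM2 (0.64 ± 0.22) and MCM5 (0.81 ± 0.28). The adjusted limma p was at least 0.380 for every member in these 3 comparisons, which share lines with each other. With the line number as a block, which in DKD and TRIM11-KD is also the shared TRIM11 guide, 15, 9 and 21 members passed at an unadjusted limma p under 0.05 in the same order of comparisons, against 15.8%, 17.3% and 12.2% of all genes. Of these, 14, 1 and 21 were higher in the knockdown named first. KDM5C-KD and TRIM11-KD lines of the same number share no guide, and KDM5C-KD and DKD lines share one only at number 2. Without the block, the count was, in that order, 1 without TRIM11-KD1 and 7 without TRIM11-KD2 or KDM5C-KD1, 0 without DKD2, and 1 without TRIM11-KD1 or DKD2, 10 without DKD1 and 11 without TRIM11-KD2.

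TYMS shares 39.9% of its exon bases with ENOSF1 on the other strand, and CCNE2 shares 37.0% with INTS8. The libraries do not mark strand, so reads from these pairs cannot be told apart there.

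The 2 lines of a knockdown differed from each other in these genes. All 18 S phase genes were higher in TRIM11-KD2 than in TRIM11-KD1, with a median log2 ratio of 0.59. In KDM5C-KD, 17 of 18 were higher in line 2 with a median of 0.50, and in DKD 17 of 18 with a median of 0.47. The mitosis genes went the same way with smaller medians of 0.13, 0.25 and 0.17. Line 2 was above line 1 in all 3 knockdowns for 16 of 18 S phase and 16 of 21 mitosis genes, and below in all 3 for 0, where 21.8% of all genes were above in all 3.

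A limma coefficient for line 2 against line 1 over the 6 knockdown lines, with the knockdown as a factor, was added after the data were seen. It gave 16 of 18 S phase and 8 of 21 mitosis genes higher in line 2 at an unadjusted p under 0.05 and 0 lower, where 9.48% of all genes were higher. RRM2 had the largest difference (0.90 ± 0.10), and its levels were 45.8 and 76.2 FPKM in TRIM11-KD, 53.6 and 116 in KDM5C-KD and 53.9 and 100 in DKD. MCM7 (0.54 ± 0.07), CDC6 (0.59 ± 0.09), CDT1 (0.65 ± 0.09) and PCNA (0.47 ± 0.07) followed by p, and all 5 had an adjusted limma p of 0.106.

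Among mitosis genes, CDC20 (0.43 ± 0.08), AURKB, the Aurora kinase of the chromosomal passenger complex (0.43 ± 0.09), and MKI67 (0.48 ± 0.12) led. MYBL2 and TYMS were the S phase genes that did not pass. The median difference was 0.47 for S phase and 0.18 for mitosis genes, where the KDM5C guide had medians of 0.50 and 0.10. Line 2 differs from line 1 by the TRIM11 guide in TRIM11-KD and in DKD and by the KDM5C guide in KDM5C-KD, and guide and line cannot be told apart with 1 library a line.

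**Figure D4:**
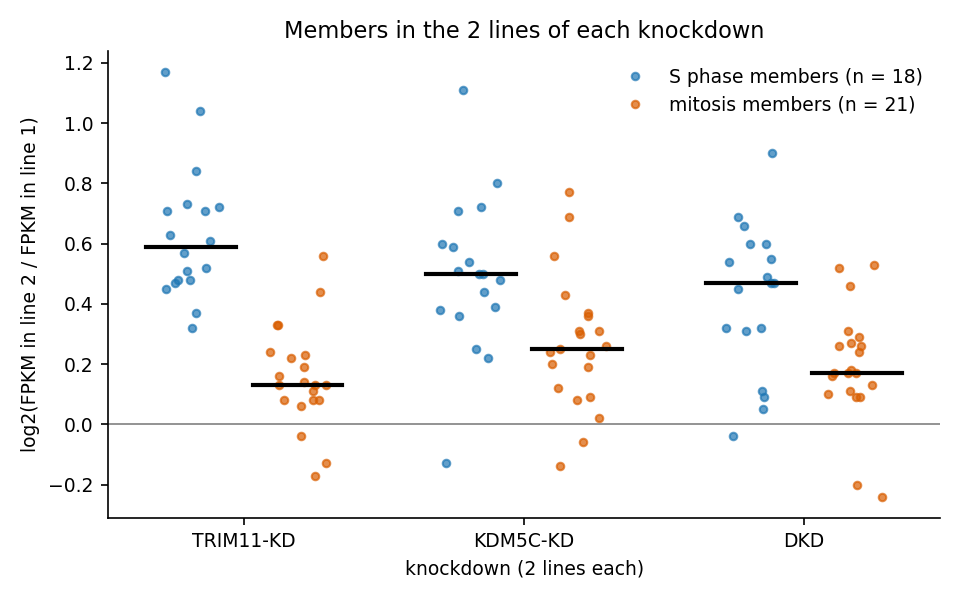
Log2 ratio of FPKM in line 2 to FPKM in line 1 of each knockdown, 1 point for each of 18 S phase and 21 mitosis genes, with black bars at the median. The S phase medians were 0.59, 0.50 and 0.47 and the mitosis medians 0.13, 0.25 and 0.17 in TRIM11-KD, KDM5C-KD and DKD.

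Other genes of the same pathways were counted from lists named by function. Of 32 other replication genes, 11 were higher with the KDM5C guide at an unadjusted limma p under 0.05 and 0 lower, with a median log2 difference of 0.28, where 5.87% of all genes tested were higher and 11.1% passed in either direction. GINS3 (0.53 ± 0.13), a partner of GINS2, and DUT (0.59 ± 0.17), which removes dUTP, had the smallest p. Of 32 other mitosis genes, 4 were higher and 0 lower with a median of 0.19, led by SPC24 of the kinetochore (0.40 ± 0.12) and the kinase MELK (0.46 ± 0.14). Of 10 genes for G1 cyclins, their kinases and activators, and of 12 cell cycle inhibitors, 0 passed in limma, with medians of 0.07 and 0.08.

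For the TRIM11 guide, 3 of the 32 other replication genes were higher and 1 lower, where 5.19% of all genes tested were higher and 10.7% passed in either direction. They were led by SLBP, which binds histone mRNA (0.40 ± 0.12), and GMNN (geminin), the inhibitor of CDT1 (-0.45 ± 0.16). Of the 32 other mitosis genes 2 were higher, SPC25 (0.45 ± 0.16) and SPC24 (0.28 ± 0.12), and of the 10 G1 genes CDK6 was higher (0.34 ± 0.12). The cell cycle inhibitors gave 0.

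In the mouse tumors, no S phase or mitosis gene passed the test between Trim11+/- and WT. Called genes needed a 1.5-fold ratio of mean FPKM and an unadjusted limma p under 0.05, which 0 of 40 members and 3.61% of all 17328 genes tested met. By p alone 0 of 40 passed with all 6 tumors, against 6.94% of all genes, and the smallest adjusted limma p of a member was 0.756. The median log2 difference was -0.08 for the 22 mitosis genes, with 15 below 0, and -0.16 for the 18 S phase genes, with 14 below 0. These differences lie within the spread of the tumors.

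Mki67 (chr7:135689784-135716361, mm10) was at 51.0, 29.2 and 28.6 FPKM in WT and 36.5, 35.8 and 49.1 in Trim11+/-, from 2891 to 5611 reads a tumor. Ccnb1 was at 25.6, 15.3 and 15.1 in WT and 17.6, 15.9 and 23.2 in Trim11+/-. For both genes WT tumor 1 was the highest and Trim11+/- tumor 3 the next, and the genotypes overlapped. Cdc20 (chr4:118432901-118437352, mm10) was at 56.6, 34.6 and 36.9 in WT and 31.8, 34.8 and 35.1 in Trim11+/-, and WT tumor 1 alone stood high. Plk1 was at 28.5, 15.2 and 18.1 in WT and 17.7, 17.6 and 21.1 in Trim11+/-.

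Among S phase genes, E2f1 was at 6.06, 4.12 and 5.47 FPKM in WT and 4.11, 4.40 and 5.61 in Trim11+/-. Ccne2 was at 7.96, 6.78 and 5.53 in WT and 4.63, 5.11 and 6.95 in Trim11+/-. Both overlapped between the genotypes. Pcna was at 86.9, 59.8 and 58.3 in WT and 57.0, 54.2 and 74.4 in Trim11+/-. Mcm2 was at 10.9, 5.70 and 7.39 in WT and 5.99, 6.13 and 8.68 in Trim11+/-. In Pcna and Mcm2, too, WT tumor 1 and Trim11+/- tumor 3 were the highest of their genotypes.

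The largest differences were within the spread as well. Rrm2 (chr12:24708241-24714146, mm10) differed by -0.38 ± 0.22 (SE, log2) and Mcm3 by -0.37 ± 0.21. Rrm2 was at 45.5, 26.2 and 28.7 FPKM in WT and 22.9, 22.4 and 29.7 in Trim11+/-. Of the mitosis genes, Cdc20 (-0.29 ± 0.19) and Ube2c (-0.20 ± 0.21) were lowest, and Cdc25c (0.21 ± 0.22) and Mki67 (0.19 ± 0.25) were highest. Rrm1 and Ccne1 were highest among S phase genes (0.14 ± 0.19 and 0.14 ± 0.24).

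Cdt1 was the only member whose levels did not overlap, with 11.5, 8.05 and 8.38 in WT and 6.82, 7.79 and 7.82 in Trim11+/-, where 13.4% of all genes tested did not overlap. Its log2 difference was -0.27 ± 0.15. The two-sided exact permutation test gave p = 0.1, the smallest that 3 against 3 tumors allow.

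The spread came from the same tumors for nearly every member. WT tumor 1 was highest of the 6 for 15 of 22 mitosis and 13 of 18 S phase genes, and Trim11+/- tumor 3 for 6 and 4. Relative to the mean of 6 tumors, the median log2 level of mitosis genes was 0.41, -0.18 and -0.09 in WT tumors 1 to 3 and -0.10, -0.25 and 0.27 in Trim11+/- tumors 1 to 3. For S phase genes it was 0.42, -0.16 and -0.01 in WT and -0.23, -0.22 and 0.17 in Trim11+/-. The median of all genes tested was between -0.01 and 0.02 in every tumor.

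Both sets had like ranges across the tumors, with a median highest over lowest of 1.78 for mitosis and 1.74 for S phase genes. Without WT tumor 1 the mitosis median between genotypes was 0.07 and the S phase median 0.00, and without Trim11+/- tumor 3 they were -0.22 and -0.31. Without WT tumor 2, Mcm3 was called (-0.54). With both tumors left out, an alternative added after the data were seen, they were -0.10 and -0.13 and 0 members were called. By p alone, Mki67 passed without WT tumor 1 (0.45) and with both tumors left out (0.31), and Rrm2 passed with both left out (-0.27), all short of 1.5-fold. Leaving out single tumors moved Mki67 from 0.04 to 0.45.

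**Figure D5:**
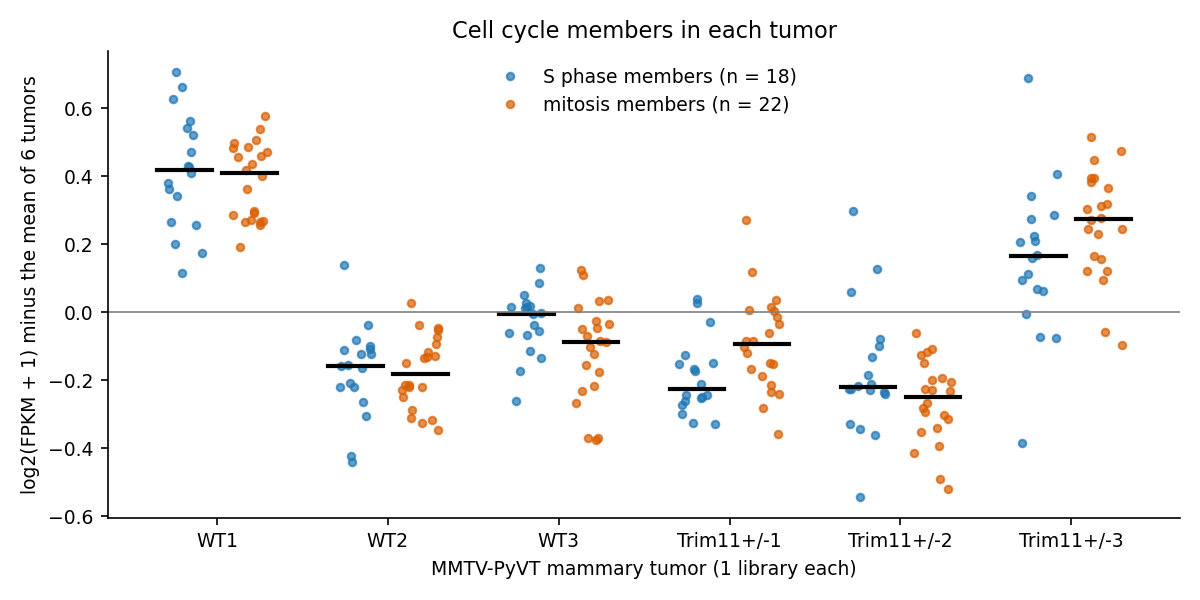
Log2(FPKM + 1) minus the mean of the 6 tumors for 18 S phase and 22 mitosis genes in each MMTV-PyVT tumor, 1 point a gene, with black bars at the median. WT tumor 1 (medians 0.42 and 0.41) and Trim11+/- tumor 3 (0.17 and 0.27) stand above the other 4.

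Markers of other cells varied among the same tumors. The summed FPKM of 5 adipocyte markers was 15.0, 123 and 28.9 in WT and 84.9, 47.0 and 8.73 in Trim11+/-, lowest in the 2 tumors with the highest cell cycle genes, and the summed level of 5 endothelial markers was 13.8, 21.6 and 19.9 in WT and 19.9, 21.0 and 9.98 in Trim11+/-, with the same 2 lowest. Fibroblast markers did not share this order, with 134, 298 and 256 in WT and 208, 124 and 143 in Trim11+/-. They were lowest in Trim11+/- tumor 2, where the median of the mitosis genes was lowest too. Skeletal muscle markers summed to between 1.78 and 272 and were also lowest in that tumor. The 5 epithelial markers summed to 1700, 1400 and 1550 in WT and to 1830, 1750 and 1320 in Trim11+/-. Those sums were lowest in Trim11+/- tumor 3 and, among WT, highest in WT tumor 1. The sums of 5 macrophage markers were 149 to 213 in WT and 148 to 159 in Trim11+/-. T cell and B cell markers summed to at most 3.02 and 0.958. Their part in the levels of the cell cycle genes was not tested.

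The other lists in tumors gave 0 of 31 mitosis and 0 of 32 replication genes at an unadjusted limma p under 0.05, with medians of -0.10 and -0.07, where 6.94% of all genes passed in either direction. Of 10 genes for G1 cyclins, their kinases and activators, 3 were lower in Trim11+/-, Myc (-0.45 ± 0.16), Ccnd1 (cyclin D1, -0.60 ± 0.22) and Ccnd2 (-0.54 ± 0.22), and 0 were higher. Of 15 inhibitors, Cdkn1b (p27, 0.30 ± 0.12) was higher and Cdkn2c (-0.28 ± 0.10) and Cdkn2b (-0.51 ± 0.21) were lower. The adjusted limma p was at least 0.674 for all of them.

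The lines and the tumors were normalized separately, so levels were not compared between them.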

How the data were processed

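RNA was measured in 7 MDA-MB-231 libraries and 6 tumors. The authors made poly(A) libraries with a kit that does not mark strand, trimmed the reads, mapped them with HISAT2 to hg19 or mm10, and deposited FPKM values, 1 column a library, made with Cufflinks at default parameters. The notes of the submitters also name Bowtie 0.12.2. The annotation used is not given in the sources used here.

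For the tumors, 98.7% of the values above 0 were whole reads within 0.02 reads, given gene lengths and a library total. Whole reads were recovered for the tumors only, so no counting error is given for the lines. The 25 human symbols turned into dates were not used. Entries that join several symbols (615 in the human table) stayed among all genes as entries of their own. None of them was counted as a member.

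Tests used log2(FPKM + 1) where the mean FPKM of a gene reached 0.5, in limma 3.58.1 (R 4.3.3) with a trend. They were two-sided, with Benjamini-Hochberg adjustment over all genes tested. The tumor and KDM5C guide fits were tried on simulated data with noise drawn separately for each gene. Shifts shared by many genes were not simulated. Other steps used Python 3.11.15, and overlaps and positions came from hg19 and mm10 annotation. P-values measure only the spread between these libraries. Per library values were given for MKI67, CCNB1, CDC20, PLK1, E2F1, CCNE2, PCNA and MCM2, and other genes were named when called, among the 2 highest or 2 lowest log2 differences of each set, past 1.5 times Control in both lines, or with the 2 smallest p of a pathway list. More genes were named than this rule gives where the text lists calls. Members and lists were chosen with earlier results of these data known. Alternatives changed the pseudocount, filter, scaling, trend, block, fold limit, covariate and libraries.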

Additional observations from a re-analysis of the deposited data

How the results depend on the processing

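In tumors, 0 to 1 members were called when each tumor was left out in turn, the count of 1 (Mcm3) coming without WT tumor 2, and 0 under every other alternative run, including limma voom on the whole reads. The tumor medians without each tumor ran from -0.22 to 0.07 for mitosis and from -0.31 to 0.00 for S phase genes. For the KDM5C guide, leaving out each line gave 3 to 18 calls, S phase medians of 0.37 to 0.62 and mitosis medians of 0.09 to 0.19, and 7 calls with TRIM11-KD1 and DKD1 both left out. For the TRIM11 guide it gave 1 to 6 calls, medians of -0.03 to 0.25 and -0.02 to 0.08, with 7 calls with both left out, 4 calls after scaling to the same total and 1 without the KDM5C term. Between knockdowns, leaving out each line gave 1 to 7 calls for KDM5C-KD and TRIM11-KD, 0 to 4 for KDM5C-KD and DKD, and 1 to 11 for DKD and TRIM11-KD, where scaling to the same total gave 8. Members past 1.5 times Control became 1, 4 and 11 with the mean of the lines and, at 2-fold, 0 in KDM5C-KD and 1 in DKD. Of all 12636 genes tested, 840, 1170 and 1243 passed upward with the mean. At 2-fold, 261 did in KDM5C-KD and 316 in DKD. The share of all genes is not given for the fits that leave out or rescale libraries or drop a term. The causes were not tested.

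With the line number as a replicate block, 15, 9 and 21 members passed in these 3 comparisons, against 15.8%, 17.3% and 12.2% of all genes. Deviations of lines with the same number correlated over genes at 0.087 for TRIM11-KD and KDM5C-KD, 0.371 for TRIM11-KD and DKD, whose number is the shared TRIM11 guide, and 0.273 for KDM5C-KD and DKD. The first is under 0.1, so the fit without the block is the one given first for all 3 comparisons. For DKD and TRIM11-KD that fit leaves the shared guide out of account, and it gave 5 members where the block gave 21. For tumors the correlations were -0.33, 0.038 and -0.13, and the numbers are not treated as pairs. The replicate block gave 0 calls in tumors.

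TTK turned to 0.02 for the KDM5C guide without the TRIM11 term and to 0.16 with TRIM11-KD1 and DKD1 left out, which also turned CCNE2 (0.13) and GINS2 (0.05) for the TRIM11 guide. Leaving out single libraries turned Ccne1 (-0.04 to 0.34), Ube2c (-0.39 to 0.00) and, for the KDM5C guide, TOP2A (-0.03 to 0.10) and TTK (-0.24 to 0.09). For the TRIM11 guide it turned CCNE2 (-0.29 to 0.04), GINS2 (-0.21 to 0.07) and MKI67 (-0.01 to 0.36). Every member had at least 93 reads in each tumor, with the fewest for Ccne1, and counting error was not estimated for single members. Depth is unknown in the lines.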

Other observations

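Several members overlap other genes in the mouse annotation, which affects libraries that do not mark strand. Gins2 shares 67.3% of its exon bases with Gse1 on the other strand, Kif20a 29.3% with Cdc23 and Ube2c 22.8% with Tnnc2, a skeletal muscle troponin. Gins2 was at 14.5, 11.6 and 12.7 FPKM in WT and 13.1, 15.9 and 9.52 in Trim11+/-, and was highest in Trim11+/- tumor 2 and lowest in Trim11+/- tumor 3, unlike the other S phase genes. Ube2c was at 42.1, 33.1 and 37.7 in WT and 42.3, 24.0 and 33.4 in Trim11+/-, where the skeletal muscle markers summed to 22.0, 105 and 227 in WT and to 272, 1.78 and 2.26 in Trim11+/-. The part of the overlapping genes in these levels was not tested.

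The joint human entry of BUB1B and PAK6 was at 19.1 FPKM in Control, 20.5 and 17.8 in TRIM11-KD, 19.7 and 19.9 in KDM5C-KD, and 22.9 and 18.5 in DKD, with a highest value 1.28 times the lowest. Bub1b in the tumors was at 21.0, 13.6 and 12.4 in WT and 12.2, 11.3 and 19.5 in Trim11+/-.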
